A study of Homo sapiens with 11 samples.

Results

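The transcripts described here are those of 10 amino acid carriers of the plasma membrane that the cell's amino acid and stress responses are known to act on, namely SLC6A9, SLC7A11, SLC7A5, SLC3A2, SLC1A4, SLC1A5, SLC38A1, SLC38A2, SLC7A1 and SLC7A3. They were taken by symbol from a table of read counts for 27671 genes. All 10 were found there, and all 10 were among the 15591 genes that passed the filter on low counts. The counts come from polyadenylated RNA of the human embryonic kidney line HEK293T. The cells received 10 µM A8 with ISRIB (n = 3), 10 µM A8 (n = 3), the solvent DMSO with ISRIB (n = 2) or DMSO (n = 3). The series title ties A8 to the RNA sensor RIG-I and the integrated stress response. ISRIB binds the translation factor eIF2B and dampens that response. The labels name the treatment time as 8 h and the protocol as 4 h, and the concentration of ISRIB is not given in the sources used here. All groups are of 1 cell line, and the submitters left out replicate 2 of DMSO with ISRIB for its quality, so its libraries are called a and b here.

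In the integrated stress response, kinases phosphorylate the translation factor eIF2, general translation falls, and ATF4, a transcription factor, is made in larger amounts. ATF4 is known to bind composite C/EBP-ATF response elements (CARE) near genes that supply amino acids, and several plasma membrane carriers are among its known targets in human and mouse cells. The carriers differ in cargo. SLC6A9 takes up glycine, SLC7A11 brings in cystine in exchange for glutamate, and SLC7A5 brings in leucine and other large neutral amino acids. SLC7A5 and SLC7A11 both need SLC3A2 (CD98hc), the heavy chain that carries them to the surface. SLC1A4 and SLC1A5 exchange small neutral amino acids, SLC1A5 with a main role for glutamine, SLC38A1 and SLC38A2 take up neutral amino acids with sodium, and SLC7A1 and SLC7A3 carry arginine and lysine.

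Stretches around the transcription start are shown because the CARE core is the element through which ATF4 reaches such genes, and they let the members be read against their values further on. RefSeq promoters of build GRCh38.p14 run from 250 bases before to 50 bases after each start. They were given for 8 of the 10 members, with 14 promoters in all, and SLC7A11 and SLC7A3 are named only. The letters TGATGNAA were searched on both strands, the reverse reading being TTNCATCA, and positions count from 1 at the start of transcription with no position 0. The match stands in capitals in each line, written 5′ to 3′ on the strand of the gene. The intervals and strands are chr2:64989340-64989399 (+) for SLC1A4, chr19:46784878-46784937 (-) for SLC1A5, chr12:46266513-46266572 (-) for SLC38A1, chr13:29595663-29595692 (-) for SLC7A1 and chr11:62881719-62881748 (+) for SLC3A2.
SLC1A4: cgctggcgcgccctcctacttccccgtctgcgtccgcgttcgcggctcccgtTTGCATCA
SLC1A5: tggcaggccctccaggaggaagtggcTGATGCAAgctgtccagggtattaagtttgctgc
SLC38A1: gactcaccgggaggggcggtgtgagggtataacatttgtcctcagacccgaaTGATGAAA
SLC7A1: gggcgcactgcTGATGAAAcctggcgccgg
SLC3A2: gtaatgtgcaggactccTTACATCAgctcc
The match lay at positions -7 to 1 in SLC1A4 and -97 to -90 in SLC1A5. It lay at -4 to 4 in SLC38A1, 8 to 15 in SLC7A1 and 38 to 45 in SLC3A2. It stood at 1 of 3 starts in SLC1A5 and SLC3A2, at 1 of 2 in SLC1A4 and SLC38A1 and at the only start given in SLC7A1, and in SLC1A4 and SLC3A2 it reads on the strand opposite the gene. Thus 5 of the 14 promoters held the letters, while 3.62% of all 35116 RefSeq promoters of this length did. SLC1A4 and SLC1A5 have C at the open position, TGATGCAA, which 0.866% of all promoters hold. SLC6A9, SLC7A5 and SLC38A2 had no match in their windows. SLC6A9 was the member with the greatest difference between groups, and the 100 bases before its start (chr1:44031463-44031562, - strand) are shown for that reason.
SLC6A9: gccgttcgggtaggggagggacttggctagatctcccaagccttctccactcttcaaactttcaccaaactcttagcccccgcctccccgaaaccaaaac
The 50 bases after the start were sought as an unbroken run in the gene's reference transcripts (GENCODE v29). They were found for the matched starts of SLC1A5 and SLC7A1. They were not found for those of SLC1A4, SLC3A2 and SLC38A1, nor for the start of SLC6A9. A match describes these letters only, and no match says only that they are not in this window.

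Each library held 34072107 to 35318111 counts over 17892 to 18017 detected genes. Levels are counts scaled to a common total (CPM) with TMM, a normalization that evens out differences in library composition. The 9 kidney and HEK293 lineage markers were detected in every group, although the renal factors PAX2 and LHX1 were low, at 0.991 to 2.14 and 1.5 to 3.35 CPM. Of 11 markers of other cells, PTPRC, CD3E, PECAM1 and COL1A2 were at 0 in all groups. The 11 summed to 18.6 to 19.9 CPM with A8 and ISRIB, 16.6 to 19 CPM with A8, 18.4 to 19.4 CPM with DMSO and ISRIB and 19 to 22.9 CPM with DMSO, nearly all of it COL1A1. As these are bulk samples, less RNA per cell and fewer cells of a kind cannot be told apart.

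Per length of transcript, the members fell into 3 abundant and 7 scarcer carriers. In DMSO the per-kilobase level was highest for SLC1A5 at 95.5 CPM per kb (range 94.7 to 96.4), followed by SLC3A2 at 93.9 CPM per kb (90.2 to 98.5), and these ranges overlap. The leucine carrier SLC7A5 came next at 51.1 CPM per kb (44.4 to 58.7), apart from both. SLC6A9 at 9.19 CPM per kb, SLC7A1 at 8.35, SLC38A2 at 7.66 and SLC38A1 at 5.70 formed a run in which each neighbouring pair of ranges overlaps. SLC7A3 at 2.27 and SLC1A4 at 1.87 CPM per kb also overlap, and the cystine carrier SLC7A11 was lowest at 0.715 CPM per kb (0.524 to 0.927). SLC6A9 moved in this order with the treatment. With A8 and ISRIB it was at 5.53 CPM per kb (5.35 to 5.74), below the whole range of SLC38A2 (6.397 to 9.591). With A8 it was at 18.2 CPM per kb (16.0 to 21.0), clear of its neighbours' ranges. With DMSO and ISRIB it was at 5.39 CPM per kb (5.08 to 5.70), again below SLC38A2 (6.90 to 7.37).

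**Figure D1:**
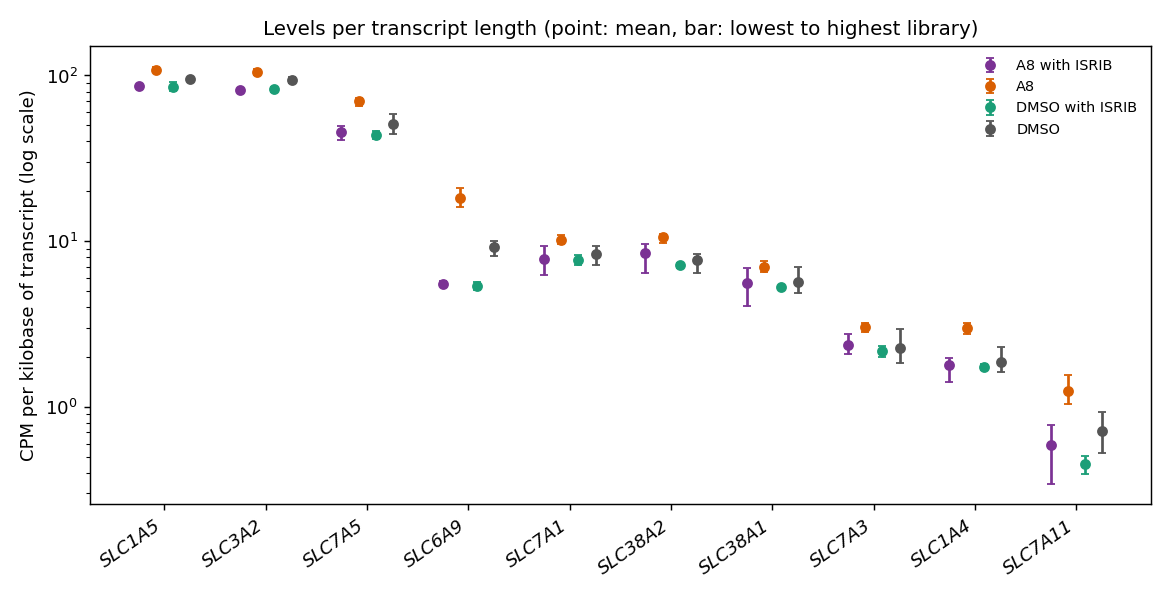
Level of each carrier in CPM per kilobase of its principal transcript (log axis) in the 4 treatment groups, the point being the group mean and the bar running from the lowest to the highest library. SLC1A5 and SLC3A2 are highest in DMSO at 95.5 and 93.9 CPM per kb, SLC7A11 is lowest at 0.715, and the SLC6A9 mean with A8 (18.2) sits above those of the other groups.

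The first comparison asks how A8 alone changed the carriers. SLC6A9, the glycine carrier, had 65.8, 55.1 and 50.1 CPM with A8, against 25.5, 29.3 and 31.4 CPM with DMSO. The groups stand well apart, the lowest A8 library being above the highest DMSO library. Its log2 fold change was 0.99 (SE 0.10, 95% interval 0.775 to 1.198, edgeR adjusted p = 0.000119), so SLC6A9 rose about as much as a doubling. It was the 1 member called of 10, while 0.141% of all genes tested were called in this comparison in either direction. Of SLC6A9's neighbours, CCDC24 overlaps its exons on the opposite strand and had 100 to 157 counts per library. The libraries keep strand, but the strand setting of the counting is not given in the sources used here. Antisense models also overlap exons of SLC7A5 and SLC1A5 in GENCODE v29 and were not used here.

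The 2 light chains that SLC3A2 carries to the surface stood higher with A8 without passing the test. SLC7A5 had 329.9, 323.2 and 295.8 CPM with A8, against 201.3, 228.4 and 266.7 CPM with DMSO, with a log2 fold change of 0.45 (SE 0.09, 95% interval 0.25 to 0.64, edgeR adjusted p = 0.0673). The groups do not overlap, and DMSO replicate 3 lies nearest to the A8 libraries. SLC7A11 had 10.9, 15.01 and 10.1 CPM with A8, against 5.05, 6.70 and 8.94 CPM with DMSO, a log2 fold change of 0.80 (SE 0.24, edgeR adjusted p = 0.246). Its groups were also apart, but its libraries scattered by 22.0% of the mean with A8 and 28.3% with DMSO. SLC7A11-AS1, an antisense transcript that overlaps SLC7A11, had only 1 to 15 counts per library. The heavy chain SLC3A2 differed less, with 237.2, 218.7 and 221.0 CPM with A8 against 212.6, 201.1 and 194.9 CPM with DMSO, or 0.15 as log2 fold change (SE 0.06, edgeR adjusted p = 0.392).

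Among the neutral amino acid exchangers, SLC1A4 had 14.5, 14.0 and 12.6 CPM with A8, against 7.42, 10.5 and 7.66 CPM with DMSO. The groups do not overlap, and DMSO replicate 2 is the high one of its group. The log2 fold change was 0.69 (SE 0.14, 95% interval 0.38 to 0.99, edgeR adjusted p = 0.0751). SLC1A5, the glutamine exchanger, had 325.0, 300.8 and 312.6 CPM with A8, against 272.6, 275.0 and 277.5 CPM with DMSO, a log2 fold change of 0.19 (SE 0.06, edgeR adjusted p = 0.276). Its 3 DMSO libraries lay close together, with an SD of 0.9% of their mean.

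The sodium-coupled carriers and the cationic carriers also had higher means with A8, and none of them was called. SLC38A2 had 47.4, 54.2 and 53.7 CPM with A8, against 31.6, 39.8 and 41.0 CPM with DMSO, a log2 fold change of 0.47 (SE 0.13, 95% interval 0.20 to 0.73, edgeR adjusted p = 0.197). SLC38A1 had 52.9 to 61.2 CPM with A8 and 39.3 to 56.0 CPM with DMSO, ranges that overlap. SLC7A1 had 70.7 to 80.3 CPM with A8 and 53.0 to 68.6 CPM with DMSO, and SLC7A3 had 6.33 to 7.17 CPM with A8 and 4.10 to 6.62 CPM with DMSO, which overlap. Their log2 fold changes were 0.29 for SLC38A1, 0.28 for SLC7A1 and 0.42 for SLC7A3, with edgeR adjusted p of 0.517, 0.426 and 0.408.

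Set side by side, all 10 log2 fold changes of A8 against DMSO were above 0, with a median of 0.43, against a median of 0.01 over all genes tested. In 8 of the 10 every A8 library lay above every DMSO library, which was so for 8.47% of all genes tested, and SLC38A1 and SLC7A3 were the exceptions. As the members were picked with earlier results of these data known, these counts describe the list and carry no test. The calls near the threshold moved with single libraries. Without DMSO replicate 3, SLC7A5 was called (log2 fold change 0.56, edgeR adjusted p = 0.00661), without DMSO replicate 2 SLC1A4 was called (0.86, 0.0274), and without A8 with ISRIB replicate 3, which enters through the shared estimate of spread, SLC7A5, SLC1A4 and SLC38A2 were all called with edgeR adjusted p of 0.0241, 0.0203 and 0.0282. SLC7A5 was also called without A8 with ISRIB replicate 1 (edgeR adjusted p = 0.0414).

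**Figure D2:**
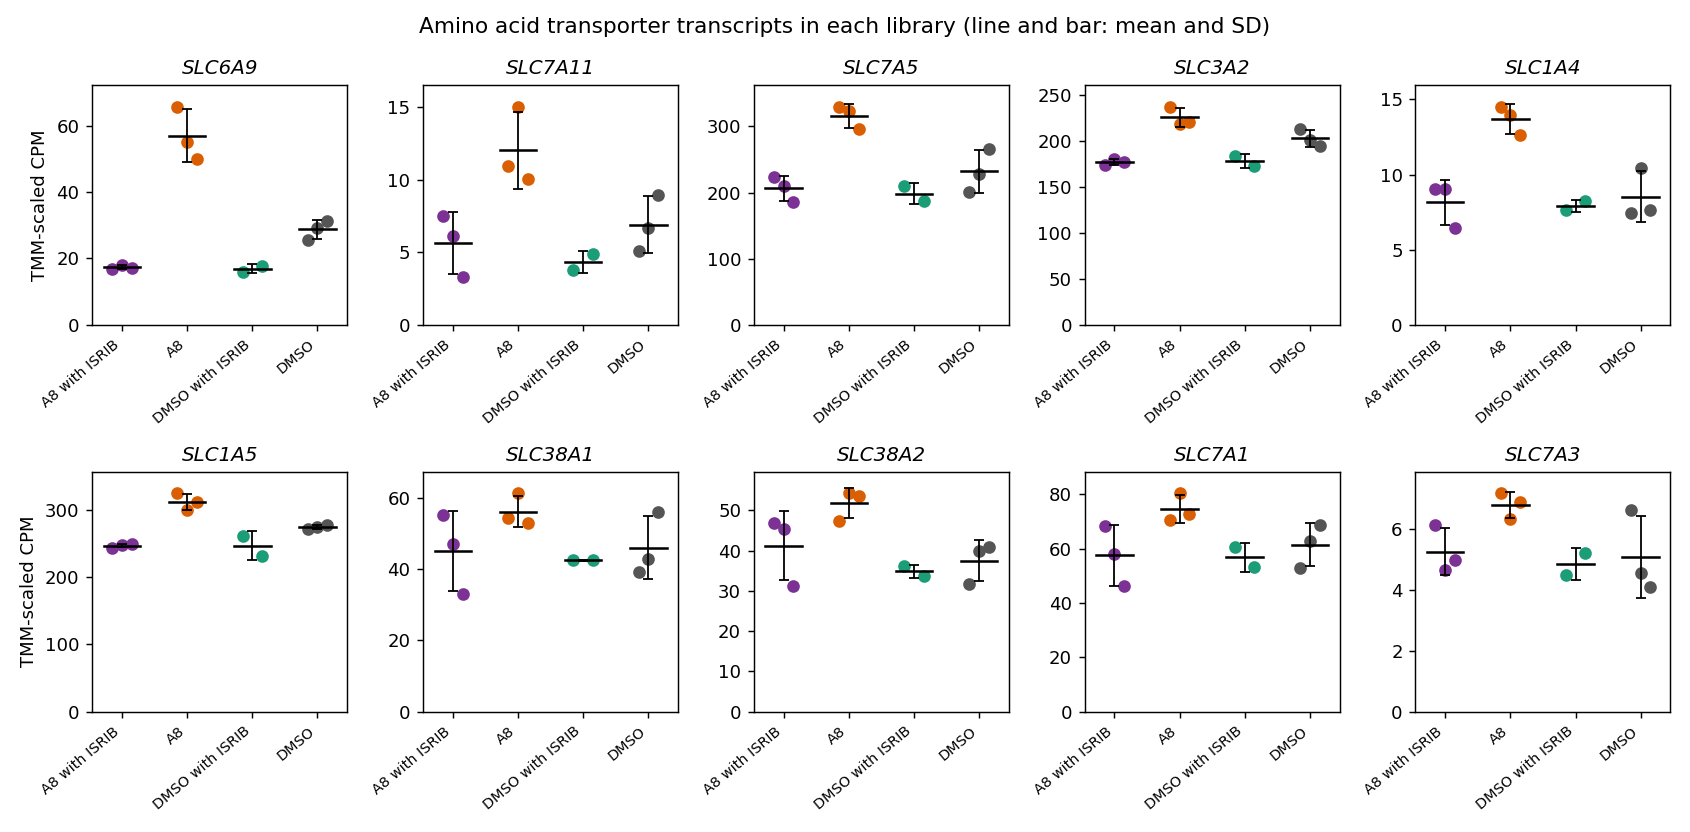
CPM of each of the 10 carriers in every library, by group, with the group mean and SD as line and error bar; each panel has its own axis. SLC6A9 with A8 (50.1 to 65.8 CPM) lies above all other groups, and for all 10 carriers the libraries with A8 and ISRIB overlap those with DMSO and ISRIB.

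The second comparison asks what adding ISRIB to A8 did. SLC6A9 had 16.8, 18.0 and 17.2 CPM with A8 and ISRIB, against 65.8, 55.1 and 50.1 CPM with A8 alone. The libraries with ISRIB lie close together and far below. SLC6A9 fell by 1.72 on the log2 scale (SE 0.10, edgeR adjusted p = 1.29e-07), and 5 members were called, all lower: SLC6A9, SLC7A5, SLC3A2, SLC1A4 and SLC1A5. Of all genes tested, 0.18% were called in either direction.

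SLC7A5 had 223.5, 210.6 and 186.0 CPM with A8 and ISRIB, against 329.9, 323.2 and 295.8 CPM with A8, and fell by 0.61 on the log2 scale (SE 0.09, edgeR adjusted p = 0.00382). SLC3A2 had 173.6, 180.1 and 176.7 CPM with A8 and ISRIB, against 237.2, 218.7 and 221.0 CPM with A8, and fell by 0.35 (SE 0.06, edgeR adjusted p = 0.0116). Chain and partner were thus both lower, with every library with ISRIB below every library without it. SLC1A5 had 244.5, 248.0 and 249.98 CPM with A8 and ISRIB, against 325.0, 300.8 and 312.6 CPM with A8, and fell by 0.34 (SE 0.06, edgeR adjusted p = 0.0161). SLC1A4 had 9.03, 9.02 and 6.42 CPM with A8 and ISRIB, against 14.5, 14.0 and 12.6 CPM with A8, and fell by 0.75 (SE 0.14, edgeR adjusted p = 0.0471). For SLC1A4 the replicate 3 of A8 with ISRIB is the low one.

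SLC6A9 and SLC7A5 were called whichever library was left out. SLC3A2 was not called without A8 replicate 1 or A8 with ISRIB replicates 1 or 2 (edgeR adjusted p up to 0.118), and SLC1A5 was not called when any of those or A8 replicate 3 was left out (up to 0.144). SLC1A4 was called only when the library left out was DMSO replicate 1, 2 or 3, and the other 8 gave an edgeR adjusted p of 0.0556 to 0.255. It was also not called with only the 2 groups compared in the fit (edgeR adjusted p = 0.0576).

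The other 5 members missed the threshold in this comparison. SLC7A11 had 7.50, 6.10 and 3.32 CPM with A8 and ISRIB, against 10.9, 15.01 and 10.1 CPM with A8, giving -1.08 as log2 fold change (SE 0.24, 95% interval -1.59 to -0.58, edgeR adjusted p = 0.145). It has the second largest difference of the 10 but also the widest error. SLC38A2, SLC7A1 and SLC7A3 had log2 fold changes of -0.33, -0.38 and -0.37 with edgeR adjusted p of 0.692, 0.55 and 0.819, and SLC38A1, whose groups overlap, had -0.32. In 9 of the 10 members every A8 with ISRIB library lay below every A8 library, against 5.98% of all genes tested. The median of the 10 log2 fold changes was -0.37, against 0.00 over all genes tested.

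**Figure D3:**
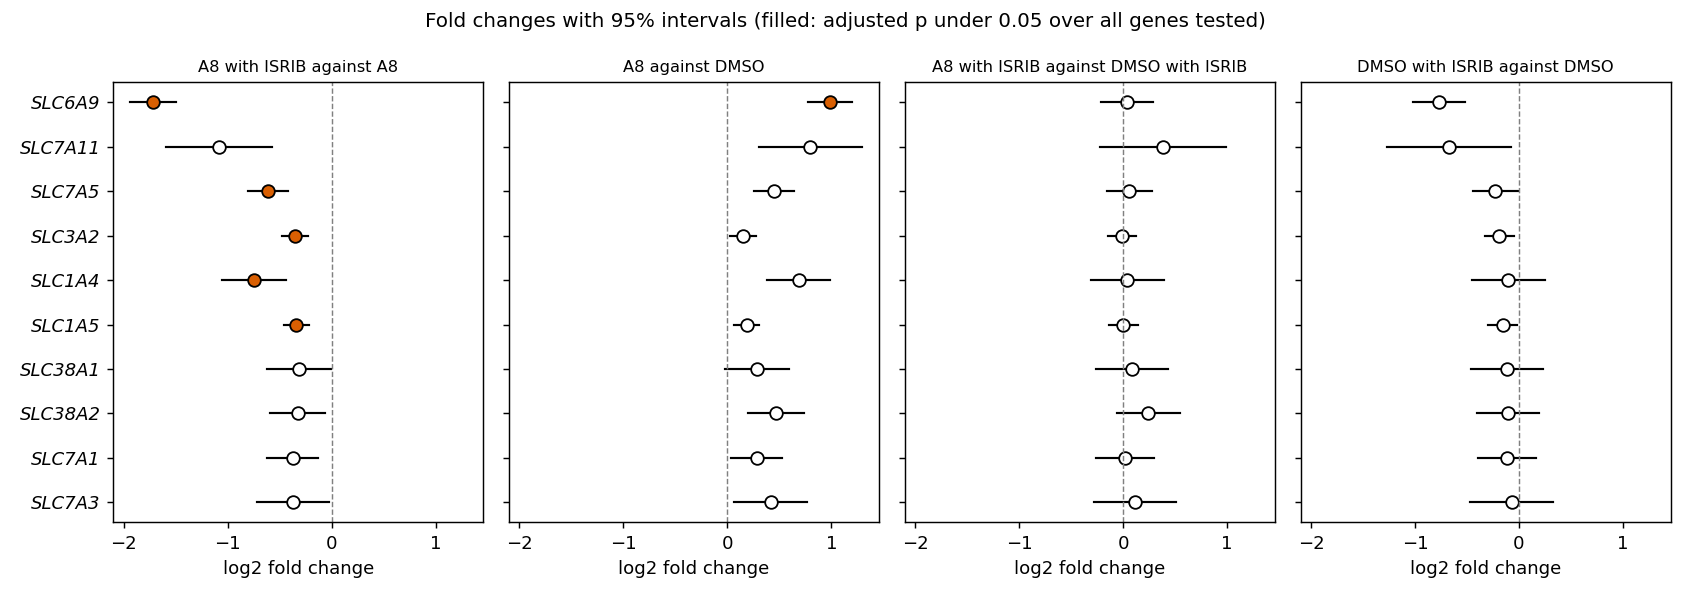
Log2 fold change of each carrier with its 95% interval in 4 comparisons, filled points being those called at an edgeR adjusted p under 0.05. All 10 points lie below 0 for A8 with ISRIB against A8 (median -0.37) and above 0 for A8 against DMSO (median 0.43), while for A8 with ISRIB against DMSO with ISRIB they lie around 0 (median 0.05).

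In the presence of ISRIB, A8 called no member. SLC6A9 had 16.8, 18.0 and 17.2 CPM with A8 and ISRIB, against 15.9 and 17.8 CPM with DMSO and ISRIB, so the groups overlap. Its log2 fold change was 0.04 (SE 0.12, edgeR adjusted p = 0.962), and the 95% interval of -0.21 to 0.29 ends well short of the 0.99 seen for A8 against DMSO. By edgeR 0 of the 10 members were called, where 0.0128% of all genes tested were. An unadjusted p under 0.05 was found for 0 members and for 8.32% of all genes tested. DESeq2 also called 0 members, of 61 genes called in all. SLC1A5 (0.00, 95% interval -0.14 to 0.14), SLC3A2 (-0.01, -0.15 to 0.13) and SLC7A5 (0.06, -0.16 to 0.27) had the narrowest intervals on the log2 scale. SLC7A11, at 0.39 with an interval of -0.22 to 1.00, is too imprecise here to tell a difference as large as its 0.80 with A8 alone from none.

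The difference between these effects of A8 was tested as the interaction of A8 and ISRIB, the log2 effect of A8 with ISRIB minus that without. For SLC6A9 it was -0.95 (SE 0.15, 95% interval -1.28 to -0.62, edgeR adjusted p = 0.0443), the 1 member called, against 0.0257% of all genes tested. This call depended on which libraries were in the fit. With 1 library left out, it was kept only without A8 replicate 3, A8 with ISRIB replicate 3 or DMSO replicate 3. With any other library left out the value was between -1.035 and -0.835 with an edgeR adjusted p up to 0.486. Those fits called only 0 to 3 genes in all, against 4 with all libraries. SLC1A4 had an interaction of -0.64 (95% interval -1.11 to -0.18, edgeR adjusted p = 0.474), SLC7A5 -0.39 (-0.68 to -0.10, adjusted p = 0.50) and SLC7A11 -0.41 (-1.19 to 0.37, adjusted p = 0.793). All 10 values were below 0, with a median of -0.28 against -0.01 over all genes tested, and over the alternatives this median ran from -0.42 to -0.18. No member other than SLC6A9 passed.

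ISRIB without A8 was set against DMSO. SLC6A9 had 15.9 and 17.8 CPM with DMSO and ISRIB, against 25.5, 29.3 and 31.4 CPM with DMSO, and the groups do not overlap. Its log2 fold change of -0.77 (SE 0.12) had the smallest p of the 15591 genes, but the edgeR adjusted p was 0.0897. By edgeR 0 members were called, and 0% of all genes tested were, although 1494 genes, 5 of the members among them, had an unadjusted p under 0.05. DESeq2 called 34 genes, among which SLC6A9 was the 1 member. The log2 fold changes of SLC7A11 (-0.67), SLC7A5 (-0.23), SLC3A2 (-0.19) and SLC1A5 (-0.16) had edgeR adjusted p of 0.486, 0.509, 0.427 and 0.486. In 4 members, SLC6A9, SLC7A11, SLC3A2 and SLC1A5, both libraries lay below all DMSO libraries, against 15.1% of all genes tested. The remaining 5 had log2 fold changes between -0.11 and -0.07.

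Against DMSO, the cells with A8 and ISRIB had less SLC6A9, with 16.8, 18.0 and 17.2 CPM against 25.5, 29.3 and 31.4 CPM. SLC6A9 fell by 0.73 on the log2 scale (SE 0.10, edgeR adjusted p = 0.0168) and was the 1 member called, against 0.0192% of all genes tested. The call was lost without A8 with ISRIB replicates 1 or 2 or without DMSO replicates 2 or 3. There the value was -0.76 to -0.665 with an edgeR adjusted p of 0.0789 to 0.182. Those fits called only 0 to 1 genes in all, against 3 with all libraries. SLC3A2 (-0.20, edgeR adjusted p = 0.401) and SLC1A5 (-0.15, edgeR adjusted p = 0.548) were the other members with no overlap. In all 3 every A8 with ISRIB library was below every DMSO library, against 6.58% of all genes tested. The comparisons named so far share groups of libraries, so their values are not independent of each other.

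ATF4, whose protein is known to act on several of these genes, did not pass the test in RNA. It had 990.4 ± 93.1 CPM with A8 and 835.9 ± 66.6 CPM with DMSO (SD, n = 3 each), or 0.25 as log2 fold change (edgeR adjusted p = 0.328). Of the other reference genes of this response, CHAC1, which degrades glutathione, and ASNS, asparagine synthetase, rose with A8 against DMSO by 1.70 and 0.70 on the log2 scale (edgeR adjusted p = 3.67e-05 and 4.46e-05). Both fell when ISRIB was added to A8, at -2.05 and -0.78 (edgeR adjusted p = 1.49e-06 and 5.18e-06). DDIT3, a transcription factor downstream of ATF4, passed in neither, with log2 fold changes of 0.36 and -0.40 (edgeR adjusted p = 0.343 and 0.554). These counts measure RNA, and neither the amount of ATF4 protein nor that of any carrier was measured here.

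The ratio of light to heavy chain was taken per kilobase within each library. SLC7A5 over SLC3A2 was 0.557 ± 0.056 with A8 and ISRIB, 0.667 ± 0.033 with A8, 0.530 ± 0.018 with DMSO and ISRIB (n = 2) and 0.547 ± 0.100 with DMSO (SD, n = 3 for the others). The DMSO libraries ran from 0.450 to 0.651, so the range with A8 of 0.637 to 0.703 overlaps theirs, while it lies above the 0.501 to 0.613 with A8 and ISRIB. SLC7A11 over SLC3A2 was 0.00716 with A8 and ISRIB, 0.0120 with A8, 0.00547 with DMSO and ISRIB and 0.00769 with DMSO. In every group the heavy chain RNA was thus in excess over the RNA of either light chain per length. Summed over the 10 carriers, the level was 811 ± 50.2 CPM with A8 and ISRIB, 1127 ± 37.2 CPM with A8, 792 ± 49.0 CPM with DMSO and ISRIB (n = 2) and 904.2 ± 50.9 CPM with DMSO (SD, n = 3 for the others), and SLC7A5, SLC3A2 and SLC1A5 make up most of each sum.

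Replicates of a group differed along the base composition of transcripts, and some carriers went with it. Over 10105 genes, the Spearman correlation of a library's deviation from its group mean with transcript GC content ran from -0.36 in DMSO replicate 3 to 0.45 in DMSO replicate 1, and was 0.29 in A8 with ISRIB replicate 3. In that last library the members of low GC content lay below their group, SLC7A11 (35.4% GC) by -0.68, SLC38A1 (41.3%) by -0.42 and SLC38A2 (38.1%) by -0.37 on the log2 scale. SLC6A9 (59.6% GC), SLC3A2 (58.1%) and SLC1A5 (61.3%) deviated there by -0.01, 0.00 and 0.01, but SLC7A5, of like GC content (61.1%), by -0.15. Of the members between, SLC1A4 (52.6%) and SLC7A1 (52.7%) deviated by -0.33 and -0.30 and SLC7A3 (51.8%) by -0.07. The DMSO libraries differed in this. SLC7A5 and SLC6A9, of high GC content, deviated by -0.20 and -0.17 in DMSO replicate 1. In DMSO replicate 3 they deviated by 0.21 and 0.13, so both went against the trend. SLC7A11 went with it at -0.41 and 0.41 in these 2 libraries, as did SLC3A2 at 0.07 and -0.06. Group differences went with GC content too, with a Spearman correlation across genes of -0.38 for A8 against DMSO, -0.61 for DMSO with ISRIB against DMSO, 0.20 for A8 with ISRIB against A8, 0.43 for A8 with ISRIB against DMSO with ISRIB, -0.23 for A8 with ISRIB against DMSO and 0.59 for the interaction.

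**Figure D4:**
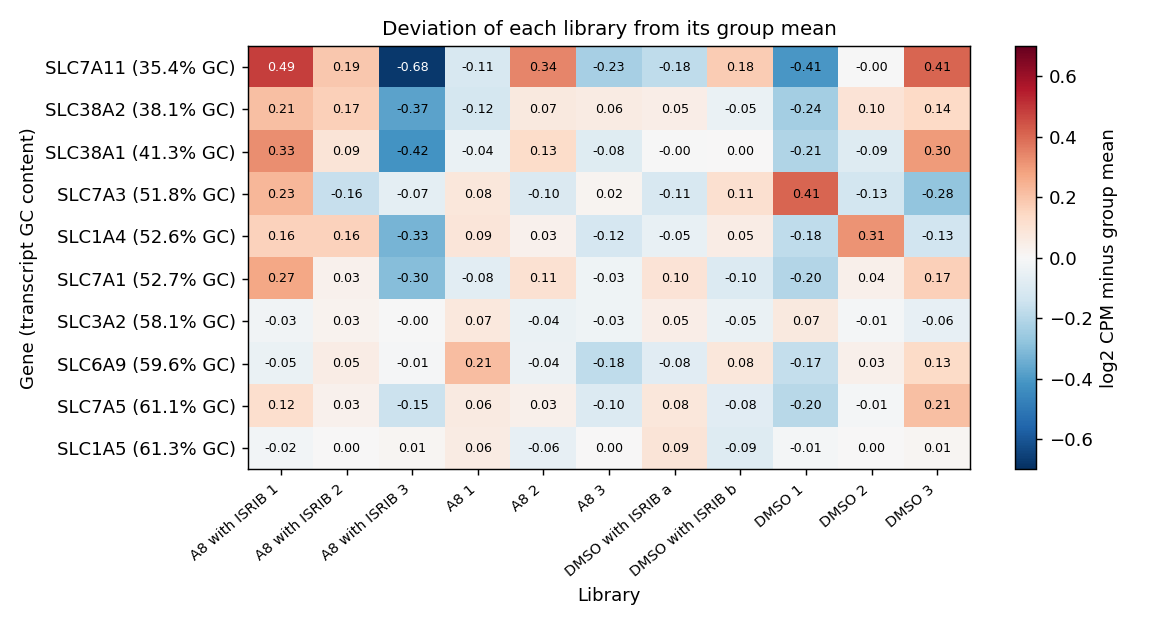
Deviation of each carrier in each library from its group mean (log2), the carriers ordered by transcript GC content. In A8 with ISRIB replicate 3 the carriers of low GC content are below their group (SLC7A11 -0.68, SLC38A1 -0.42), SLC3A2 and SLC1A5 are at 0.00 and 0.01, and SLC7A5 is at -0.15. In DMSO replicate 1 SLC7A11 is at -0.41 and SLC7A5, of high GC content, at -0.20.

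With this trend taken out by an offset, an alternative chosen after seeing the data, the log2 fold change of A8 against DMSO was 1.03 for SLC6A9 and 0.50 for SLC7A5, which was then called (edgeR adjusted p = 0.0407). For A8 with ISRIB against A8 it was -1.74 for SLC6A9 and -1.06 for SLC7A11, which was then called (edgeR adjusted p = 0.0459). For DMSO with ISRIB against DMSO it was -0.68 for SLC6A9, with an edgeR adjusted p of 0.359 in place of 0.0897. In that comparison SLC7A5 was at -0.13 in place of -0.23, SLC3A2 at -0.12 in place of -0.19 and SLC1A5 at -0.05 in place of -0.16, while SLC38A1 and SLC38A2 were at -0.20 and -0.21 in place of -0.11 and -0.10. The interaction of SLC6A9 was -1.05 (edgeR adjusted p = 0.0375) with the offset.

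The members shared patterns with each other and with other genes. Likeness was measured as the root mean square difference in log2 CPM over the 11 libraries, each gene centred on its mean, so that 0 is an identical pattern. SLC3A2 and SLC1A5 were the closest pair of members at 0.044, and each is the other's nearest gene. SLC38A1 and SLC7A1 followed at 0.087, then SLC38A2 and SLC7A1 at 0.122. For SLC3A2 the next genes were MARS and YARS, which charge tRNA with methionine and tyrosine, and SHMT2 and PHGDH, enzymes of serine and glycine metabolism, at 0.057 to 0.067. SLC1A5 had MARS at 0.044, LOC100288152 at 0.055, SHMT2 at 0.058 and TMEM129 at 0.060. For scale, SLC3A2 itself moved by 0.153 and SLC1A5 by 0.148 around their means.

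SLC6A9 moved by 0.722 and had PCK2, the mitochondrial PEP carboxykinase, at 0.273, DDIT4, an inhibitor of mTORC1 signalling, at 0.274, STC2, a secreted glycoprotein, at 0.338, CHAC1, which degrades glutathione, at 0.364 and SESN2, a leucine-binding regulator of mTORC1, at 0.374. SLC7A5 moved by 0.289. Its nearest were ALDH1L2 and MTHFD2 of mitochondrial folate metabolism at 0.099 and 0.119, the serine enzyme PSAT1 at 0.122, LOC101927021 at 0.116 and NHSL1 at 0.119. SLC1A4 moved by 0.375, and nearest to it were the collagen receptor DDR2 at 0.170, asparagine synthetase ASNS at 0.174, MTHFD2 at 0.174, PSAT1 at 0.179 and CARS, which charges tRNA with cysteine, at 0.180. These patterns rest on the same 11 libraries, which share their depth and base composition trends.

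Other amino acid carriers served for comparison. Of 25 further plasma membrane carriers 16 were tested, and by edgeR 0 were called in any of the 6 comparisons. For A8 against DMSO their log2 fold changes had a median of -0.01, with 7 above and 9 below 0, and 2 of the 16 had an unadjusted p under 0.05, as 10.2% of all genes tested did. For A8 with ISRIB against A8 the median was -0.06, with 3 at an unadjusted p under 0.05, against 5.91% of all genes tested. The 3 most abundant were SLC7A6, a further light chain of SLC3A2 for cationic and neutral amino acids, SLC7A8, its light chain for neutral ones, and SLC6A15, a sodium-coupled carrier of neutral amino acids. SLC7A6 averaged 85.4 CPM with A8 and ISRIB, 86.1 CPM with A8, 86.4 CPM with DMSO and ISRIB and 87.1 CPM with DMSO. Its log2 fold change of A8 against DMSO was -0.02 (95% interval -0.16 to 0.12), and those of SLC7A8 and SLC6A15 were -0.10 and 0.12. Of 14 lysosomal and mitochondrial carriers 12 were tested, with 0 called by edgeR and a median of 0.03 for A8 against DMSO and -0.07 for A8 with ISRIB against A8. SFXN1, the mitochondrial serine carrier, had log2 fold changes of -0.08 and -0.02 in these comparisons, SLC25A13, the aspartate and glutamate carrier, 0.03 and -0.01, and SLC25A22, a glutamate carrier, -0.16 and 0.29.

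The authors' deposited tables give their own DESeq2 values for 3 of the comparisons. For A8 against DMSO the authors' deposited table called SLC6A9 (log2 fold change 0.99, adjusted p = 3.09e-13), SLC1A4 (0.69, 5.12e-05) and SLC7A5 (0.44, 0.000692), 3 of the 10 members where 0.319% of its 20395 genes were called. For DMSO with ISRIB against DMSO the authors' deposited table called SLC6A9 alone of the members (-0.77, adjusted p = 0.000141), where 0.0392% of genes were called. For A8 with ISRIB against DMSO the authors' deposited table again called SLC6A9 alone (-0.73, adjusted p = 1.93e-05), with 0.0392% of genes called.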

How the data were processed

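RNA of 11 HEK293T libraries was analysed, grouped by the treatment in the labels. Per the labels' protocols, polyadenylated RNA was made into strand-marked libraries and sequenced on a DNBSEQ instrument. The authors deposited whole-number counts per gene symbol. The submitters' processing notes name the build GRCh37 and the tools DESeq and DESeq2. For the aligner, the counter, the annotation and the strand setting of the counting, the entry is: not given in the sources used here. The authors also deposited 3 tables with, per the file headers, base means (normalized counts averaged over libraries, a signal), the log2 fold change and its standard error, Wald statistics (a score), p-values and adjusted p-values. Only log2 fold changes and p-values of these are printed, always as theirs.

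Counts were fitted with edgeR 4.0.16 in R 4.3.3, with genes kept by filterByExpr, TMM scaling and 1 quasi-likelihood fit of group means over all 11 libraries. The adjusted p is Benjamini-Hochberg over the 15591 genes tested, and a gene is called at an adjusted p under 0.05. Standard errors were derived from the F statistic, and the code was tested on simulated counts. No sample column was left unused (0). Totals were 34072107 to 35318111 counts per library, so that counting error is small for most members, and replicate libraries differed by more than sampling noise (chi-square per degree of freedom 7.36 to 37.0). Nothing in the labels beyond the word biological says that replicates came from separate cultures, so p-values measure the spread between these samples. The columns of DMSO with ISRIB are numbered 1 and 2 and the titles 1 and 3, so these columns were given to the group only.

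Lengths and GC content are those of GENCODE v29 principal transcripts, and promoters are RefSeq of GRCh38.p14. Neither is the authors' build. The members, the lists of other carriers and the tests were chosen with earlier results of these data known. All 10 members are named, as are the 3 most abundant genes of each list of other carriers, any called gene of these lists, and the 5 genes nearest in pattern to each member (root mean square difference of centred log2 CPM, prior count 2, mean log2 CPM at least 2), printed for members called in a comparison. Alternatives were the Wald test of DESeq2 1.42.0, DESeq2 size factors within edgeR, other filters, fits of only the groups compared, a replicate block, each library left out and, added after seeing the data, a GC offset with and without the block.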

Additional observations from a re-analysis of the deposited data

Results flagged for a closer look

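The interaction of A8 and ISRIB was called for SLC6A9 with all libraries in the fit, at -0.95 on the log2 scale (edgeR adjusted p = 0.0443). The call depended on which libraries were in the fit and was kept in 8 of 16 alternatives. Without DMSO replicate 2, for example, the value was -0.96 with an edgeR adjusted p of 0.173, and that fit called 0 genes in all. The log2 fold change of A8 was 0.04 with ISRIB and 0.99 without it. In the presence of ISRIB the libraries with A8 overlap those without it, and in its absence they lie apart.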

How the results depend on the processing

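SLC6A9 was called in all 19 alternatives for A8 against DMSO (0.87 to 1.07) and for A8 with ISRIB against A8 (-1.81 to -1.60). SLC7A5 was called in 17 of 19 for A8 with ISRIB against A8. The number of members called for A8 against DMSO, 1 as reported, was 4 with the DESeq2 Wald test (of 117 genes), 5 with no filter on low counts (of 104 genes) and 2 with the GC offset (of 44 genes). For DMSO with ISRIB against DMSO, 0 as reported, it was 1 with DESeq2 (of 34 genes), with no filter (of 14 genes) and with only the groups compared (of 3 genes). With each library left out it was 1 to 4 for A8 against DMSO, 0 to 1 for DMSO with ISRIB against DMSO, 2 to 5 for A8 with ISRIB against A8, 0 to 1 for A8 with ISRIB against DMSO, 0 for A8 with ISRIB against DMSO with ISRIB and 0 to 1 for the interaction. For A8 against DMSO the 4 was of 50 genes called, without A8 with ISRIB replicate 3. For A8 with ISRIB against A8 the 2 was of 17 genes without A8 replicate 1 and of 19 without A8 with ISRIB replicate 2. With only the groups compared the number of members was 0 (of 0 genes) for A8 with ISRIB against DMSO. The SLC6A9 interaction was called in 8 of 16 alternatives, with an adjusted p of 2.26e-05 by DESeq2.

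Whether replicate numbers pair the samples could not be told. Same-numbered libraries had correlations of -0.50 to 0.42 in their deviations. These deviations also went with GC content, so the correlations cannot decide it. With the replicate block 1 member (of 15 genes) was called for A8 with ISRIB against A8 and 0 (of 0 genes) for A8 with ISRIB against DMSO. With the block and the GC offset it was 3 (of 19 genes) and 0 (of 0 genes). Under the block the calls of SLC7A5, SLC3A2, SLC1A4 and SLC1A5 for A8 with ISRIB against A8 were lost (edgeR adjusted p = 0.0842, 0.098, 0.0879 and 0.098), at log2 fold changes of -0.61, -0.35, -0.76 and -0.34. No paired analysis was possible for DMSO with ISRIB because its columns are numbered 1 and 2 and its titles 1 and 3, so the columns were given to the group only.

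The median log2 fold change of the members turned to -0.0001 (reported 0.05) for A8 with ISRIB against DMSO with ISRIB without A8 with ISRIB replicate 1. With each library left out, that median ran from -0.0001 to 0.153. It turned to 0.0124 (reported -0.12) for A8 with ISRIB against DMSO without A8 with ISRIB replicate 3, and ran from -0.1943 to 0.0124. For A8 with ISRIB against A8 it ran from -0.5084 to -0.3485 over the alternatives, and for the interaction from -0.4178 to -0.179. The causes were not tested. No member changed sign in any alternative for A8 against DMSO, A8 with ISRIB against A8 or the interaction. For DMSO with ISRIB against DMSO, A8 with ISRIB against DMSO with ISRIB and A8 with ISRIB against DMSO, 4, 19 and 8 values did. The group of 2 libraries limits what can be told, as do the low counts of SLC7A11, SLC7A3 and SLC1A4. SLC7A11 also scattered between libraries, by 37.7% of the mean with A8 and ISRIB, 22.0% with A8 and 28.3% with DMSO.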

Other observations

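A pair of plasma membrane carriers outside the 10 members, chosen after their values were seen, had an unadjusted p under 0.05 for A8 against DMSO, a share of the 16 tested near the 10.2% of all genes. SLC43A1, a carrier of large neutral amino acids that needs no heavy chain, averaged 23.9 ± 2.77 CPM with A8 and ISRIB, 31.9 ± 3.22 CPM with A8, 19.8 ± 0.07 CPM with DMSO and ISRIB (n = 2) and 23.4 ± 0.58 CPM with DMSO (SD, n = 3 for the others). Its log2 fold change was 0.45 (SE 0.09, edgeR adjusted p = 0.0751) for A8 against DMSO and -0.42 (SE 0.09, edgeR adjusted p = 0.169) for A8 with ISRIB against A8, so neither passed. For SLC1A3, a glutamate carrier, the log2 fold change was -0.39 (SE 0.10, edgeR adjusted p = 0.181) for A8 against DMSO and 0.26 (SE 0.10, edgeR adjusted p = 0.746) for A8 with ISRIB against A8.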
